A study of Mus musculus with 12 samples.

Results

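The expression of 8 costimulatory and maturation genes (Cd80, Cd86, Cd40, Cd274, Ccr7, Fscn1, Zbtb46 and Cacnb3) was examined in airway macrophages (AMs) of mice. The 8 genes were chosen by function, with their levels in the 4 groups of these libraries already known, from the 20551 genes of the count table, and all 8 passed the filter on low counts. Their levels and fold changes are therefore given as a description, without p-values.

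RNA was sequenced from AMs of C57BL/6 mice aged 6 weeks that were either Scnn1b-Tg or wild-type (WT) littermates. Scnn1b-Tg mice carry a transgene for the beta subunit of the epithelial sodium channel under the promoter of the club cell secretory protein, which is active in airway epithelium and not in AMs, and they develop mucus obstruction of the airways. Lavages of 3 to 4 animals formed a pool, and cells were kept for 12 h in medium or with 100 ng/ml lipopolysaccharide (LPS) from Pseudomonas aeruginosa. The number in a title was taken to pair the medium and LPS libraries of 1 pool. The 12 libraries formed 4 groups of 3, namely WT in medium and WT with LPS (pools 16, 17 and 18) and Scnn1b-Tg in medium and Scnn1b-Tg with LPS (pools 17, 18 and 19). Library batch 1 held WT 16, WT 17 and Tg 17, and batch 2 held WT 18, Tg 18 and Tg 19. The GEO labels describe lavage cells that adhered to plates, whereas the methods of the study describe cells sorted by surface markers, so the gate that applied to these libraries is not certain. Pools bearing the same number in WT and Scnn1b-Tg were made from different animals.

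Antigen-presenting cells give a T cell more than antigen. CD80 and CD86, the B7 ligands, bind CD28 and CTLA-4 on T cells, PD-L1 (encoded by Cd274) restrains T cells through PD-1, and CD40 receives the CD40 ligand of T cells and signals through TRAF adaptors to NF-kB. Dendritic cells that mature also raise CCR7, the receptor for the chemokines CCL19 and CCL21 that guides them to lymph nodes, and fascin (Fscn1), which bundles actin in their protrusions. Zbtb46 encodes a transcription factor characteristic of conventional dendritic cells, and Cacnb3 encodes a beta subunit of voltage-gated calcium channels. Resident AMs are regarded as weak activators of naive T cells.

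The totals ranged from 48.2 to 60.9 M deposited counts per library. Of the low values, 55.3% lay at 0 or 3 modulo 5, against 40% for an even spread, and a step of about 2.5 counts per read was inferred. At that step 3 reads are worth 8 counts, which was taken as the floor, or 0.131 to 0.166 counts per M deposited counts (CPM) by library. The sum of 11 AM markers lay between 5733 and 8837 CPM and was carried by Ctsk, without which it was 2088 to 3321 CPM. With LPS, 7 of the 11 AM markers fell and 3 rose in WT AMs, and 8 fell and 3 rose in Scnn1b-Tg AMs, with median log2 fold changes of -1.83 and -2.10. Siglecf, for example, fell from 115 to 11.1 CPM in WT AMs and, in Scnn1b-Tg AMs, from 118 to 6.47 CPM. Of the markers of conventional dendritic cells, Wdfy4 was plentiful with 1836 to 6021 counts per library and Batf3 held 15 to 145 counts, whereas Flt3 held at most 15 counts, Clec10a at most 12, Kit at most 13, Xcr1 at most 25, Clec9a at most 27 and Dpp4 at most 31. The B cell markers Ms4a1 and Cr2 were at the floor in all 12 libraries, whereas Cd79a reached 38 counts and Cd79b 23 counts. Scnn1b itself, which the transgene drives in epithelium, was at a mean of 0.251 CPM (WT) and 0.361 CPM (Scnn1b-Tg) in medium, so it does not check the genotype labels here.

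All 8 genes are protein coding, and their positions are given on mm10 from the GENCODE M21 annotation. The B7 ligands lie on chromosome 16, with Cd80 at 38455561 to 38496335 on the plus strand and Cd86 at 36603869 to 36666081 on the minus strand. Cd40 spans 165055627 to 165072948 (plus) and Zbtb46 spans 181387762 to 181459426 (minus) of chromosome 2. Cd274 lies on chromosome 19 at 29367455 to 29388095 (plus), Ccr7 on chromosome 11 at 99144196 to 99155077 (minus), Fscn1 on chromosome 5 at 142960343 to 142973185 (plus) and Cacnb3 on chromosome 15 at 98630840 to 98644529 (plus). Reads were counted without strand, and 14.1% of the exon length of Cd274 overlaps a gene on the opposite strand, so its counts may include some reads of that gene. The exons of the other 7 genes overlap no other annotated gene.

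Promoter windows from RefSeq (GRCm38.p6), from 250 bases before to 50 bases after an annotated start, were matched for 5 of the 8 genes. Those of Fscn1, Cd274 and Zbtb46, which were higher with LPS, are printed beside that of Cd80, which was not, from 5′ to 3′ on the strand of the gene. Both strands were searched for the AP-1 motif TGANTCA, the interferon-stimulated response element GAAANNGAAA and the NF-kB consensus, and capitals mark a match.

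Fscn1 (chr5:142960105-142960404, plus strand): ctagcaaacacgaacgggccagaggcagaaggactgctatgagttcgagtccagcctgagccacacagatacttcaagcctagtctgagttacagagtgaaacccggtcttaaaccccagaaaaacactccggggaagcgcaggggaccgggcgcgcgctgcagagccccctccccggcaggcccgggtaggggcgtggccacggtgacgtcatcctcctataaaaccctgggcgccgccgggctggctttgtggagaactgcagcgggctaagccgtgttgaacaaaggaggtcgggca
Cd274 (chr19:29367188-29367487, plus strand): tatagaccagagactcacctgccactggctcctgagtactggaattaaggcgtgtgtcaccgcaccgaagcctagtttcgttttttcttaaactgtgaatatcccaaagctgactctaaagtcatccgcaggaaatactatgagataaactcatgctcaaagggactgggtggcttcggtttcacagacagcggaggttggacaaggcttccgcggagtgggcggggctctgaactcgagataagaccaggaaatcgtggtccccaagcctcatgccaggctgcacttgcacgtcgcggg
Zbtb46 (chr2:181424339-181424638, minus strand): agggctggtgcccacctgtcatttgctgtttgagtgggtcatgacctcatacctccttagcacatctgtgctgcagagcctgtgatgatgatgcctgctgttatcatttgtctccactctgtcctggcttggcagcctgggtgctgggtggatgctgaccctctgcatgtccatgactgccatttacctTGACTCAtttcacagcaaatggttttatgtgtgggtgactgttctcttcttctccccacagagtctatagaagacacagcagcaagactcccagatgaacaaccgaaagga
Cd80 (chr16:38458683-38458982, plus strand): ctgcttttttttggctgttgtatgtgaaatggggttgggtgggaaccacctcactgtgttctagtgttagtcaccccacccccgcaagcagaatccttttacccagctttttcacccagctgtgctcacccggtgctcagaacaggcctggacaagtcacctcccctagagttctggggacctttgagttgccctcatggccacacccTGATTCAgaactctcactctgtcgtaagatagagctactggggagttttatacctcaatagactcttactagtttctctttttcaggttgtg

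An AP-1 match was present in the windows of Zbtb46, beginning at base -61 from the start, and Cd80, beginning at base -42. The windows of Fscn1, Cd274 and Cacnb3 held none of the 3 motifs, and no member's window held the NF-kB consensus or the interferon-stimulated response element. Among 32851 windows of the same length, 7.81% held the AP-1 motif, 4.51% the NF-kB consensus and 3.44% the interferon-stimulated response element. The Zbtb46 and Cd80 starts lie inside the annotated gene bodies. The Fscn1 window had a GC content of 61.7% with 21 CpG dinucleotides, and the Cd274 window had 52.7% with 15, against medians of 52.7% and 7 over all windows. The windows of Zbtb46 (50.7%, 1 CpG) and Cd80 (49.7%, 3 CpGs) were poor in CpG.

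**Figure D1:**
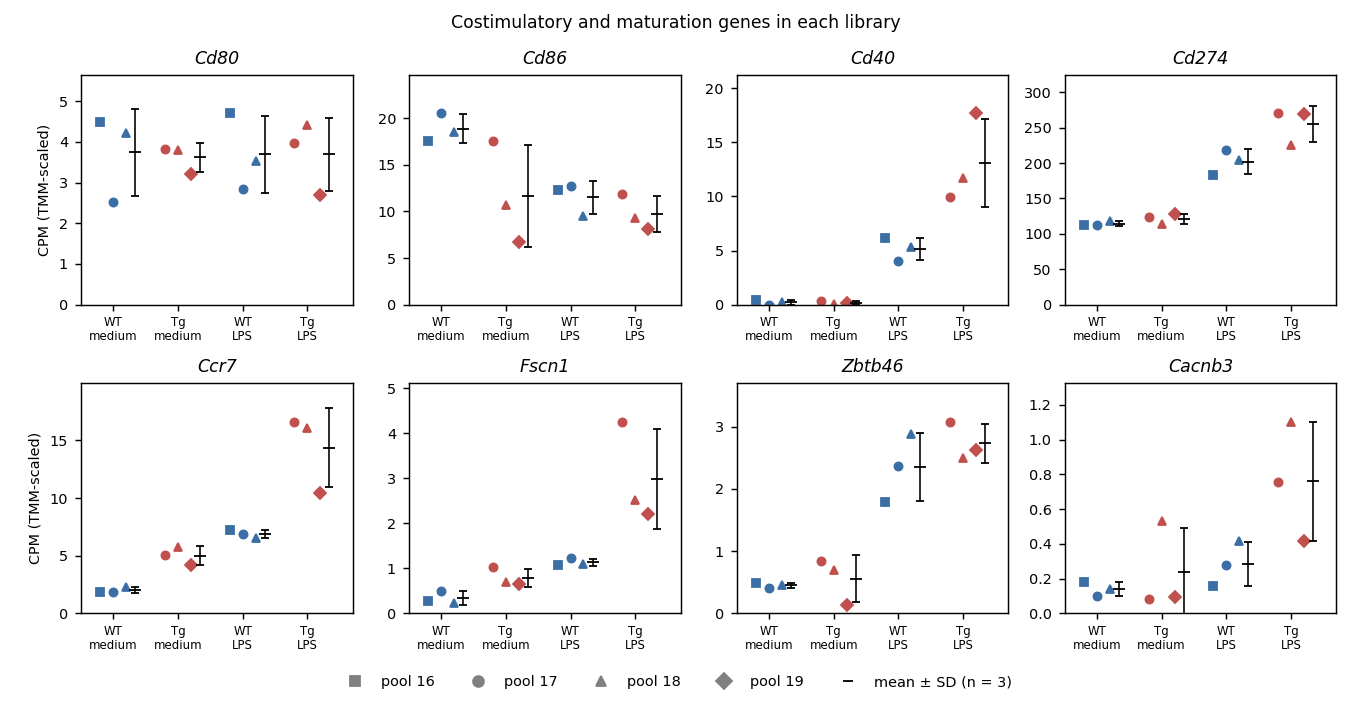
Counts per M counts (CPM, TMM-scaled, linear axes from 0 that differ between panels) of the 8 genes in each of the 12 libraries, coloured by genotype (blue WT, red Scnn1b-Tg) and shaped by pool, with the group mean ± SD (n = 3) as black bars, cut at 0 where they reach below it. Ccr7 and Fscn1 rise over the 4 groups in the order drawn with no overlap between neighbouring groups, Cd40 lies near 0 in medium, and Cd80 overlaps among all groups.

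Per kilobase of exon, which allows levels of different genes to be compared, Cd274 was the most abundant of the 8 genes in every group. In WT AMs in medium it reached 31.6 ± 0.883 CPM per kb (mean ± SD, n = 3), against 5.16 ± 0.421 for Cd86, 1.02 ± 0.135 for Ccr7 and 1.01 ± 0.286 for Cd80. Fscn1 (0.111 ± 0.0513), Cd40 (0.0659 ± 0.0612), Zbtb46 (0.0530 ± 0.00461) and Cacnb3 (0.0350 ± 0.00963) lay far lower. In Scnn1b-Tg AMs with LPS the same unit gave 70.4 ± 7.02 for Cd274, 7.27 ± 1.71 for Ccr7, 3.85 ± 1.19 for Cd40 and 2.66 ± 0.523 for Cd86. Ccr7 and Cd40 thus stood above Cd86 in mean level there, whereas in WT AMs in medium they stood below it.

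The levels of the ligand Cd80 overlapped among the 4 groups. In WT AMs it was at 4.48, 2.53 and 4.22 CPM in medium (pools 16, 17 and 18) and at 4.71, 2.85 and 3.53 CPM with LPS. In Scnn1b-Tg AMs it was at 3.83, 3.80 and 3.21 CPM in medium (pools 17, 18 and 19) and at 3.98, 4.41 and 2.69 CPM with LPS. Part of the spread followed the pool, with WT 17 low in both conditions. The fitted log2 fold change with LPS was -0.03 ± 0.27 (SE) in WT and 0.03 ± 0.26 in Scnn1b-Tg AMs. An interval of 2 SE around the change in WT AMs ran from -0.56 to 0.50, so changes within these bounds are not distinguished from none.

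The second B7 ligand, Cd86, fell with LPS in WT AMs. Its WT levels were 17.5, 20.6 and 18.5 CPM in medium and 12.3, 12.7 and 9.52 CPM with LPS, without overlap. In Scnn1b-Tg AMs it was at 17.6, 10.7 and 6.74 CPM in medium and at 11.8, 9.28 and 8.06 CPM with LPS. The Scnn1b-Tg medium group was the most spread of the 4, from a level like that of WT (pool 17) to one below all LPS libraries (pool 19). The log2 fold change with LPS was -0.74 ± 0.21 in WT and -0.23 ± 0.21 in Scnn1b-Tg AMs, and the difference between these responses was 0.51 ± 0.30. Between the genotypes in medium Cd86 differed by -0.60 ± 0.21 on the log2 scale. On the log2(CPM + 0.5) scale this difference was -0.11 in batch 1, which held the Tg 17 pool, and -1.08 in batch 2. Tg 17 was the only Scnn1b-Tg pool of batch 1 and WT 18 the only WT pool of batch 2, so batch and pool cannot be told apart. The ratio of Cd86 to Cd80 per kilobase was 5.55 ± 2.34 in WT AMs in medium, 3.29 ± 1.06 in WT AMs with LPS, 3.20 ± 1.29 in Scnn1b-Tg AMs in medium and 2.72 ± 0.513 in Scnn1b-Tg AMs with LPS, and the first 2 of these differed by less than the SD of the first.

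The inhibitory ligand Cd274 was about doubled by LPS from an already high level. In WT AMs it went from 113, 112 and 118 CPM in medium to 184, 218 and 204 CPM with LPS. In Scnn1b-Tg AMs it went from 124, 114 and 127 CPM to 271, 226 and 269 CPM. Every LPS library exceeded every medium library, and with LPS all 3 Scnn1b-Tg libraries lay above all WT libraries, while in medium the genotypes overlapped. The log2 fold change with LPS was 0.82 ± 0.09 in WT and 1.07 ± 0.09 in Scnn1b-Tg AMs.

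The receptor Cd40 was almost silent in medium and showed the largest LPS change of the 8 genes. WT AMs in medium held 0.412, 0 and 0.261 CPM, and Scnn1b-Tg AMs in medium held 0.359, 0.0951 and 0.149 CPM. Of these 6 medium libraries, 1 of WT and 2 of Scnn1b-Tg were at the floor. With LPS, WT AMs reached 6.13, 4.06 and 5.31 CPM and Scnn1b-Tg AMs reached 9.98, 11.7 and 17.7 CPM, so that neither genotype overlapped its medium libraries nor the other genotype with LPS. The ratio of group means was 23.0 (WT) and 65.2 (Scnn1b-Tg), and the fitted log2 fold changes were 4.46 ± 0.50 and 5.96 ± 0.48. Because the denominators rest on 0 to 23 counts per library, these ratios are imprecise, and the difference of 1.5 ± 0.91 between the responses had an interval of 2 SE from -0.33 to 3.32. The level after LPS rests on more counts, with 5.17 ± 1.04 CPM in WT AMs against 13.1 ± 4.07 CPM in Scnn1b-Tg AMs, a log2 difference of 1.27 ± 0.34.

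The chemokine receptor Ccr7 differed by both treatment and genotype. WT AMs in medium held 1.88, 1.85 and 2.33 CPM and Scnn1b-Tg AMs in medium held 5.07, 5.80 and 4.17 CPM. With LPS, WT AMs held 7.21, 6.85 and 6.57 CPM and Scnn1b-Tg AMs held 16.6, 16.0 and 10.5 CPM. The 4 groups were therefore ordered WT in medium, Scnn1b-Tg in medium, WT with LPS and Scnn1b-Tg with LPS, and no neighbours in this order overlapped. The share of all genes with such an order was not counted. LPS raised Ccr7 by 1.76 ± 0.21 (log2) in WT and by 1.52 ± 0.19 in Scnn1b-Tg AMs. Scnn1b-Tg exceeded WT AMs by 1.33 ± 0.22 in medium and by 1.09 ± 0.19 with LPS, and on the log2(CPM + 0.5) scale the difference in medium was 1.23 in batch 1 and 0.94 in batch 2, and with LPS 1.19 and 0.93. The LPS responses of the genotypes differed by -0.25 ± 0.28, with an interval of 2 SE from -0.81 to 0.32.

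The actin-bundling gene Fscn1 had the same order of groups at a lower level. WT AMs in medium held 0.269, 0.509 and 0.221 CPM, which is 11 to 25 counts and close to the floor, and Scnn1b-Tg AMs in medium held 1.03, 0.704 and 0.654 CPM. With LPS, WT AMs held 1.08, 1.23 and 1.10 CPM and Scnn1b-Tg AMs held 4.26, 2.51 and 2.20 CPM. Again no neighbouring groups overlapped, although the lowest WT library with LPS (1.08 CPM) lay barely above the highest Scnn1b-Tg library in medium (1.03 CPM). LPS raised Fscn1 by 1.80 ± 0.31 (log2) in WT and by 1.89 ± 0.23 in Scnn1b-Tg AMs. Scnn1b-Tg exceeded WT AMs by 1.46 ± 0.33 in medium and by 1.56 ± 0.22 with LPS, the latter being 1.53 in batch 1 and 0.84 in batch 2 on the log2(CPM + 0.5) scale.

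The dendritic cell factor Zbtb46 was higher with LPS in both genotypes, whose libraries overlapped in medium and with LPS. In medium it was at 0.483, 0.407 and 0.462 CPM in WT AMs and, in Scnn1b-Tg AMs, at 0.839, 0.704 and 0.131 CPM, the last library being at the floor. With LPS, WT AMs held 1.80, 2.38 and 2.89 CPM, and Scnn1b-Tg AMs held 3.08, 2.49 and 2.62 CPM. The log2 fold change with LPS was 2.38 ± 0.41 in WT and 2.28 ± 0.38 in Scnn1b-Tg AMs. The calcium channel gene Cacnb3 was also scarce, with 5 to 28 counts per library in medium and 2 of 3 libraries of each genotype at the floor. Its medium levels were 0.179, 0.102 and 0.141 CPM in WT AMs and, in Scnn1b-Tg AMs, 0.0856, 0.533 and 0.0934 CPM. With LPS, WT AMs held 0.160, 0.278 and 0.415 CPM, and Scnn1b-Tg AMs held 0.757, 1.10 and 0.417 CPM. The corresponding log2 fold changes were 0.99 ± 0.78 and 1.72 ± 0.57.

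**Figure D2:**
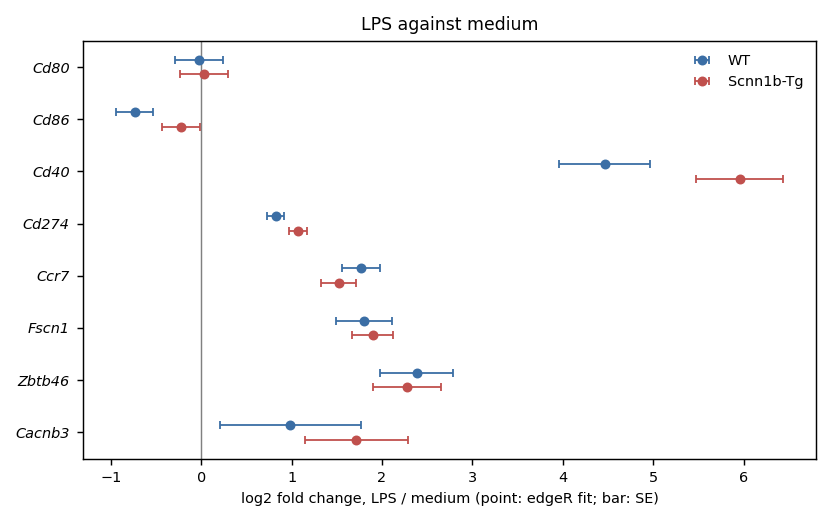
Fitted log2 fold change of LPS against medium (x axis) for each gene in WT (blue) and Scnn1b-Tg AMs (red), with bars of 1 SE from the edgeR fit. Cd80 lies at 0, Cd86 to the left of 0, and Cd40 farthest to the right with 4.46 in WT and 5.96 in Scnn1b-Tg AMs.

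At an adjusted p of 0.05 (edgeR quasi-likelihood test over 13729 genes), LPS gave 5 of the 8 genes a call as higher in WT AMs (Cd40, Cd274, Ccr7, Fscn1 and Zbtb46), where 15.5% of all genes were called higher, and 1 as lower (Cd86), where 16.2% were called lower. In Scnn1b-Tg AMs the same 5 genes and Cacnb3 were called higher, where 19.3% of all genes were, and none was called lower, where 18.7% were. As the genes were picked with these values known, these calls and those between the genotypes describe the fit and are no evidence of their own, and nothing is read from their shares. The calls of Cd40, Cd274, Ccr7, Fscn1 and Zbtb46 held in all 22 alternative fits in each genotype. The Cd86 call in WT AMs ended without the batch term and without any of the libraries WT LPS 16, WT LPS 18 and WT medium 18, where its log2 fold change was between -0.77 and -0.51. In Scnn1b-Tg AMs Cd86 was called in 1 of the 22 alternative fits. Its log2 fold change there ranged from -0.46 to 0.05 over the alternatives. The Cacnb3 call in Scnn1b-Tg AMs ended without any of the libraries Tg LPS 17, Tg LPS 18, Tg medium 17 and Tg medium 19, where its log2 fold change was between 1.27 and 1.45, and also with the earlier quasi-dispersion of edgeR and in a fit of only the groups compared. Without 1 library in turn it ranged from 1.27 to 3.01. No gene was called for a difference between the LPS responses of the genotypes, nor was any other gene (0% of 13729 by edgeR, of which 817 had an unadjusted p under 0.05, and 77 by DESeq2).

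Between the genotypes, only Ccr7 in medium and Fscn1 with LPS were called, both at the higher level in Scnn1b-Tg AMs. In medium 0.168% of all genes were called higher and 0.168% were called lower than in WT, and with LPS 0.051% were called higher and 0% lower (7 and 0 genes by edgeR, with 978 genes at an unadjusted p under 0.05 and 146 called by DESeq2 in either direction). DESeq2 called Ccr7 and Fscn1 in both conditions. With the shared number of the pools as a replicate block, Ccr7 and not Fscn1 was called with LPS. Only the numbers 17 and 18 occur in both genotypes, and they join pools of different animals, so this block is no check by pairing. The Ccr7 call in medium ended in 9 of the 12 fits that left 1 library out, with a log2 fold change between 1.21 and 1.51, namely without any of the 3 Tg and 3 WT medium libraries, Tg LPS 17, WT LPS 17 or WT LPS 18. The Fscn1 call with LPS ended in all 12 such fits, with a log2 fold change between 1.32 and 1.83. All Scnn1b-Tg libraries lay above all WT libraries for Ccr7 and Fscn1 in medium, as for 9.02% of all genes, and for Cd40, Cd274, Ccr7, Fscn1 and Cacnb3 with LPS, as for 5.72% of all genes. No such share is given for LPS against medium or for the order of the 4 groups. Nothing is therefore read from the lack of overlap in those comparisons.

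**Figure D3:**
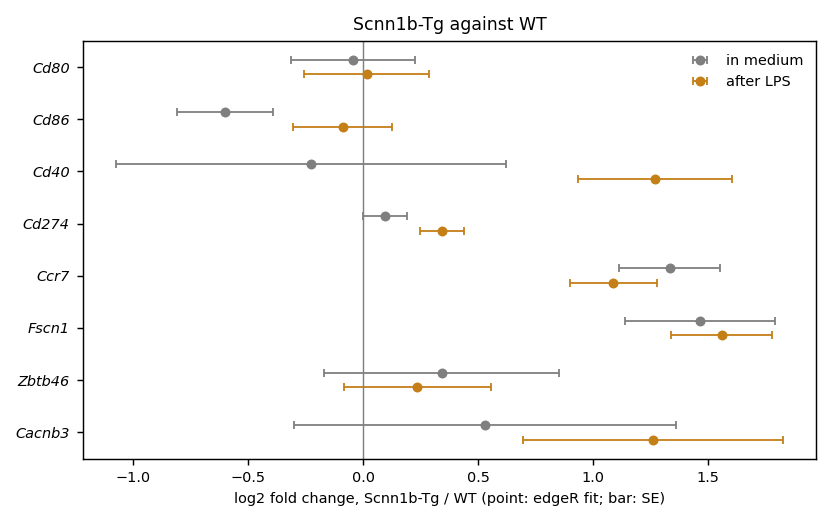
Fitted log2 fold change of Scnn1b-Tg against WT AMs (x axis) for each gene in medium (grey) and with LPS (orange), with bars of 1 SE. Ccr7 and Fscn1 lie between 1.09 and 1.56 in both conditions, Cd40 and Cacnb3 are higher with LPS with wide bars, and Cd80 lies at 0.

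The LPS change was also read within each pool. On the log2(CPM + 0.5) scale Ccr7 rose by 1.70, 1.64 and 1.32 in WT pools 16, 17 and 18, and in Scnn1b-Tg pools 17, 18 and 19 by 1.62, 1.39 and 1.23. Fscn1 rose by 1.04, 0.78 and 1.15 in the WT pools and by 1.64, 1.32 and 1.23 in the Scnn1b-Tg pools, although this scale shrinks changes of genes near the floor. Cd40 rose by 2.86, 3.19 and 2.93 in the WT pools and by 3.61, 4.36 and 4.81 in the Scnn1b-Tg pools. Cd274 rose by 0.70, 0.96 and 0.79 in the WT pools and by 1.13, 0.99 and 1.07 in the Scnn1b-Tg pools. Cd86 fell in each WT pool, by 0.50, 0.67 and 0.93, and in the Scnn1b-Tg pools changed by -0.55, -0.20 and 0.24, so that only pool 19, the lowest in medium, moved upward.

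Several of the 8 genes are also expressed by dendritic cells, B cells and T cells, so markers of these cells were read beside them. Wdfy4 made up most of the sum of the dendritic cell markers and fell in Scnn1b-Tg AMs with LPS, from 90.4 to 49.3 CPM. Without it these markers summed to 2.32 to 3.98 CPM (WT) and 1.87 to 3.71 CPM (Scnn1b-Tg) in medium, and to 1.40 to 1.64 and 0.588 to 1.75 CPM with LPS, and the genotypes overlapped in both conditions. Within the list, Batf3 fell with LPS from 2.15 to 0.704 CPM in WT AMs and, in Scnn1b-Tg AMs, from 1.76 to 0.365 CPM, while Xcr1 had means of 0.110 and 0.113 CPM in medium and of 0.309 and 0.345 CPM with LPS and was not called. Flt3 was above the floor in 1 library, Tg LPS 18, at 0.285 CPM. The T cell list was dominated by Cd2, which fell with LPS from 193 to 29.9 CPM in WT AMs and, in Scnn1b-Tg AMs, from 169 to 16.7 CPM, and its other members summed to 1.54 to 2.83 CPM. Monocyte markers summed to 0.937 to 2.49 CPM. Of the 4 monocyte markers tested, Ly6c2 (0.185 to 0.995 CPM) and Vcan rose and Ccr2 fell with LPS in Scnn1b-Tg AMs, and in WT AMs only Ccr2 was called, as lower. Neutrophil markers summed to 11.5 to 14.5 CPM (WT) and 18.2 to 28.8 CPM (Scnn1b-Tg) in medium, and to 9.76 to 12.6 and 14.6 to 19.4 CPM with LPS. Without Mmp8, their top gene, they summed to 5.62 to 8.29 CPM (WT) and 11.4 to 13.3 CPM (Scnn1b-Tg) in medium. With LPS the sums without Mmp8 overlapped, at 6.18 to 9.35 and 7.94 to 14.2 CPM. Of the 3 neutrophil markers tested, only Cxcr2 separated the genotypes in medium, at 3.63 to 4.35 CPM (WT) and 5.55 to 9.64 CPM (Scnn1b-Tg). Over all genes, 9.02% lay higher in Scnn1b-Tg AMs in medium without overlap. S100a8 and Mmp8 overlapped between the genotypes in medium, and none of the 3 was called there. The separation of the neutrophil sums with LPS rested on Mmp8. S100a9 and Ngp were at the floor in all 12 libraries. The sum of the airway epithelial markers moved the other way with 77.4 to 103 CPM (WT) and 39.3 to 68.0 CPM (Scnn1b-Tg) in medium, and 75.7 to 109.5 and 32.1 to 61.9 CPM with LPS. This separation rested on Scgb1a1, the top gene. Without it the genotypes overlapped, with 31.5 to 43.2 CPM (WT) and 23.8 to 39.0 CPM (Scnn1b-Tg) in medium, and 23.4 to 40.6 and 18.3 to 26.5 CPM with LPS. The part of any of these cells in the LPS and genotype differences was not tested, and in such bulk samples a change in the number of expressing cells and a change in RNA per cell cannot be told apart.

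The other genes of costimulation and maturation were followed through 5 lists of 61 genes, of which 56 were in the table and 45 passed the filter. These lists, too, were chosen with earlier results of these data known. Their calls, shares and adjusted p-values, here and below, therefore describe the fit and are no evidence of their own. LPS raised 28 and lowered 2 of them in WT AMs, and raised 28 and lowered 3 in Scnn1b-Tg AMs. Over all genes tested, 15.5% were called higher and 16.2% lower in WT AMs, and 19.3% and 18.7% in Scnn1b-Tg AMs. None was called between the genotypes by edgeR as fitted here, although 16 in medium and 13 with LPS had an unadjusted p under 0.05, and none was called for a difference in LPS response, although 8 had an unadjusted p under 0.05.

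Further ligands of the B7 and immunoglobulin type moved in either direction, with 4 of 9 tested genes higher and 1 lower in WT AMs, and with 4 that rose and 2 that fell in Scnn1b-Tg AMs. Their median log2 fold change was 0.67 in WT and 0.32 in Scnn1b-Tg AMs, where all genes tested had medians of 0.0029 and -0.015. The poliovirus receptor Pvr rose from 6.18 to 28.0 CPM in WT AMs (log2 fold change 2.18 ± 0.13, edgeR adjusted p = 5.12e-07) and by 2.52 ± 0.13 in Scnn1b-Tg AMs (adjusted p = 1.24e-07). Icosl, the ligand of the T cell costimulator ICOS, rose by 0.94 ± 0.12 in WT and 1.63 ± 0.13 in Scnn1b-Tg AMs, and Cd200, an inhibitory ligand for myeloid cells, by 0.80 ± 0.10 and 0.90 ± 0.10. Lgals9 was called higher in WT AMs, from 68.2 to 108 CPM, and Nectin2 in Scnn1b-Tg AMs, from 5.75 to 13.7 CPM. Cd276 (B7-H3) fell in both genotypes, by 0.65 and 0.88 on the log2 scale, and Vsir, which encodes the inhibitory ligand VISTA, fell by 1.38 in Scnn1b-Tg AMs (adjusted p = 0.00503) and had a change of -0.78 ± 0.32 in WT AMs (adjusted p = 0.0854). The second PD-1 ligand, Pdcd1lg2, which was singled out after its values were seen, had log2 values of -0.33 ± 0.37 in WT AMs and, in Scnn1b-Tg AMs, of -0.58 ± 0.36, neither of them called.

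Of 8 listed costimulatory ligands of the TNF type 4 passed the filter, and 3 of these (Tnfsf4, Tnfsf9 and Tnfsf15) rose with LPS in both genotypes from levels near the floor, with a median log2 fold change over the 4 of 3.85 in WT AMs and 4.54 in Scnn1b-Tg AMs (3.66 in WT with genes at the floor set to their bound). Tnfsf4, encoding OX40 ligand, went from 0.203 to 10.8 CPM in WT AMs, and in Scnn1b-Tg AMs from the floor in all 3 libraries to 4.73 CPM, at least 32.4-fold higher. Tnfsf9, encoding 4-1BB ligand, went from 0.179 to 2.92 CPM in WT AMs and, in Scnn1b-Tg AMs, from 0.362 to 6.51 CPM. Tnfsf15 went from the floor to 1.57 CPM in WT AMs, at least 10.1-fold higher, and in Scnn1b-Tg AMs it went from 0.207 to 6.13 CPM. With LPS, Tnfsf4 was lower in Scnn1b-Tg than in WT AMs by 1.19 ± 0.29 (adjusted p = 0.189) whereas Tnfsf9 was higher by 0.95 ± 0.19 (adjusted p = 0.133) and Tnfsf15 by 1.77 ± 0.31 (adjusted p = 0.0798), none past the threshold.

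Of 12 genes that act downstream of CD40, 10 were called higher with LPS in WT AMs and 9 in Scnn1b-Tg AMs, with none lower, and the median log2 fold change was 0.93 in WT and 1.25 in Scnn1b-Tg AMs. Traf1, an adaptor that binds TRAF2 and is itself induced by NF-kB, went from 0.832 to 105 CPM in WT AMs (6.99 ± 0.27, adjusted p = 2.03e-08), and in Scnn1b-Tg AMs from 0.976 to 127 CPM (7.02 ± 0.26, adjusted p = 1.4e-08). Tnfaip3, an inhibitor of NF-kB, rose by 2.36 ± 0.28 and 2.67 ± 0.29, Traf5 by 2.07 ± 0.09 and 2.33 ± 0.09, and Nfkb2, a subunit of the non-canonical pathway, by 1.54 ± 0.11 and 2.09 ± 0.11. The kinase gene Chuk and the ubiquitin ligase gene Birc2 were not called in either genotype.

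The list of the mature dendritic cell programme was raised in part. Of 22 genes 13 were called higher in WT AMs, and in Scnn1b-Tg AMs 14 were higher and 1 was lower, with median log2 fold changes of 0.86 and 0.93. Il12b, encoding the shared subunit of IL-12 and IL-23, went from 0.0597 to 1.51 CPM in WT (adjusted p = 0.000134), and in Scnn1b-Tg AMs from 0.221 to 3.87 CPM (adjusted p = 8.8e-06). Cxcl16 rose by 3.34 ± 0.11 and 3.20 ± 0.11, and the actin regulator genes Marcks by 2.67 ± 0.15 and 2.14 ± 0.14 and Marcksl1 by 2.35 ± 0.20 and 3.38 ± 0.21. Cd83, a surface marker of mature dendritic cells named here after its values were seen, was called only in Scnn1b-Tg AMs (0.60 ± 0.11, adjusted p = 0.00164) and had a similar sign in WT AMs (0.31 ± 0.11, adjusted p = 0.0624), and the difference between these was not called. The chemokine genes Ccl17 and Ccl22, strongly associated with mature dendritic cells, were not called in either genotype. Myo1g fell by 0.36 in Scnn1b-Tg AMs.

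**Figure D4:**
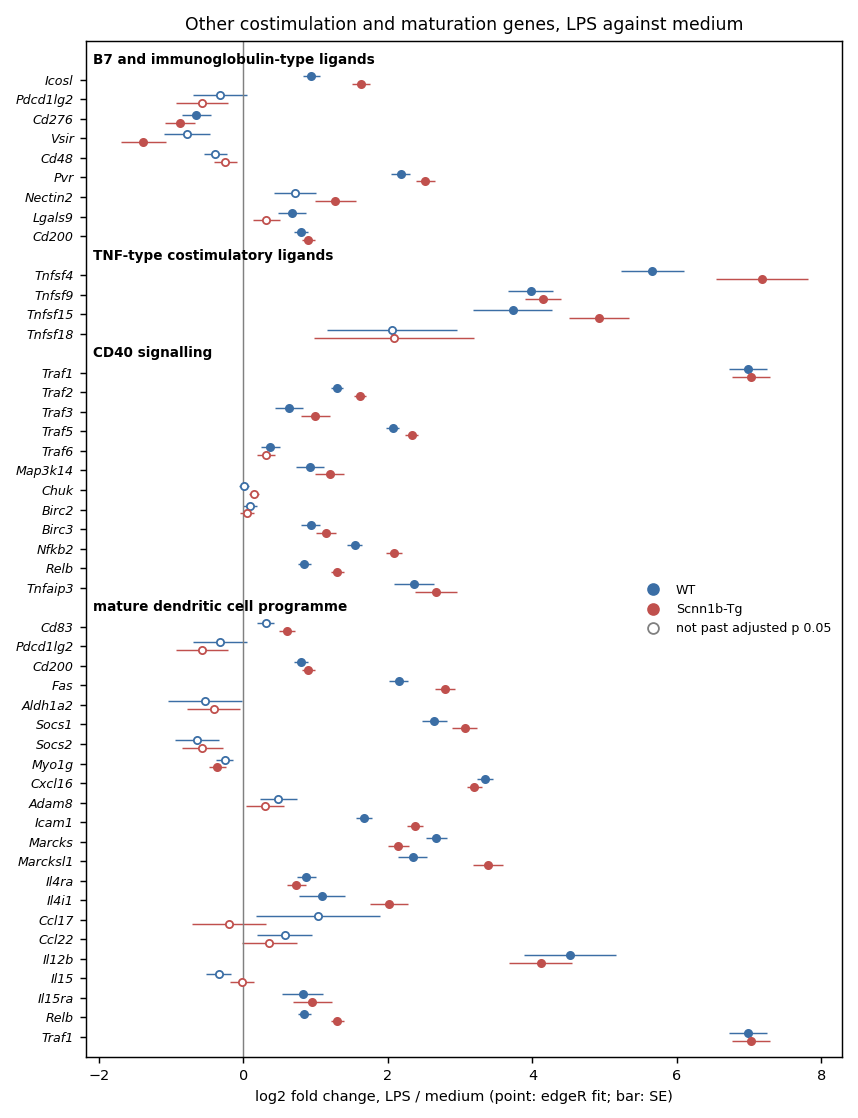
Fitted log2 fold change of LPS against medium (x axis) for the tested genes of 4 lists in WT (blue) and Scnn1b-Tg AMs (red), with bars of 1 SE; open circles did not pass an adjusted p of 0.05, and genes in more than 1 list are drawn in each. Traf1, Il12b and the TNF-type ligands Tnfsf4, Tnfsf9 and Tnfsf15 lie farthest to the right, and the B7-type ligands fall on either side of 0.

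The partners and relatives of the members were mostly near or below the floor. Of the 12 listed, 8 were in the table and 2 passed the filter. The receptors on the T cell side gave no more than 10 counts (Cd28), 11 counts (Icos) and 5 counts (Pdcd1) in any library, and the fascin relatives Fscn2 and Fscn3 were at the floor in all groups. Among the calcium channel beta subunits, Cacnb1 rose with LPS by 1.14 ± 0.33 in WT (adjusted p = 0.0214) and by 1.26 ± 0.27 in Scnn1b-Tg AMs (adjusted p = 0.00335), and Cacnb4 fell in WT AMs from 0.367 to 0.0315 CPM (adjusted p = 0.0204). Exons of Cxcl16, Nfkb2, Cacnb4, Tnfsf9 and Cd276 overlap other genes by 18.3%, 18.1%, 16%, 14.9% and 11.4% of their length, which makes their counts uncertain to that extent. Il4i1, which is counted among the called genes of the mature dendritic cell programme, overlaps other genes over 88.3% of its exon length and is not resolved here.

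Finally, each member's profile over the 12 libraries was set beside those of 9102 genes with a mean of at least 5 CPM, by the root mean square difference of centred log2(CPM + 0.5) values. The nearest profiles to Cd274 were those of Trim21 (0.067), Clcn7 (0.096) and Ogfr (0.103), far closer than for the other genes that LPS raised. Nearest to Ccr7 were Myo10 (0.328), Ebi3 (0.385) and Ddx60 (0.393), and nearest to Fscn1 were Lrrk2 (0.297), Tent5c (0.297) and Myo10 (0.305), so that Myo10 was near to both. Cd40 was nearest to Lad1 (0.457), Gbp2 (0.465) and Cxcl16 (0.484). Cd86 was nearest to Tpx2 (0.256), Smc2 (0.263) and Nsun3 (0.273), and Zbtb46 to Filip1l (0.254), Cybb (0.261) and Tnip1 (0.261). Cd80 was nearest to the unnamed ENSMUSG00000094130 (0.150), Zfp146 (0.161) and Rnf7 (0.164), and Cacnb3 to Lztfl1 (0.259), Rac2 (0.261) and Ncf4 (0.261). The value is smaller for genes with steadier or flatter profiles and is given as a description.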

How the data were processed

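The authors deposited 1 table of estimated counts per gene, given as whole numbers. Reads (SMART-Seq v4 libraries, paired-end 125 bp) were aligned by the authors to mm10 with HISAT2 in unstranded mode and quantified with StringTie against GENCODE M20, and its helper converted coverage into counts. It was inferred that 1 read is worth about 2.5 counts (55.3% of 47985 low values lay at 0 or 3 modulo 5, against 40% for an even spread). Totals were 48.2 to 60.9 M counts per library, equal to 9.64 to 12.2 M read pairs at that step, and floors cover counting error only because amplified reads are not independent molecules. Symbols of 20132 of 20551 genes came from GENCODE M21.

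edgeR 4.0.16 in R 4.3.3 was applied to the counts as deposited: filterByExpr (minimum count 10, minimum total 15) kept 13729 genes, TMM factors were used, and a quasi-likelihood model with terms for group and library batch was fitted to all 12 libraries (two-sided, Benjamini-Hochberg over all genes, threshold 0.05). The current quasi-dispersion was used, and the earlier one was an alternative added after the data were seen. Other alternatives used DESeq2 1.42.0, limma 3.58.1, RLE factors, other filters, counts divided by 5, no batch term, a replicate block and fits without 1 library. The script was tested on simulated data. CPM are TMM-scaled, and intervals are 2 SE wide on each side. The edgeR test gives no SE, so each SE was taken as the absolute log2 fold change divided by the square root of its F statistic.

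The numbers in the titles were taken to pair medium and LPS libraries of 1 pool. Deviations from the group means correlated at 0.137 to 0.335 within the 6 pools so paired, and at -0.24 to 0.15 after the batch was removed. WT and Scnn1b-Tg libraries that shared only a number correlated at 0.110 to 0.261 before the batch was removed. The correlations therefore cannot show the pairing. The 8 genes and all lists were chosen with earlier results of these data known. Beyond the 8 genes, up to 4 called genes with the largest rise and up to 4 with the largest fall were named per list and LPS comparison, with exceptions stated, and the 3 nearest profiles per member. Genes that were not called, such as Chuk, Birc2, Ccl17 and Ccl22, were named outside this rule. So were the genotype differences of Tnfsf4, Tnfsf9 and Tnfsf15. The replicates were separate pools of animals.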

Additional observations from a re-analysis of the deposited data

How the results depend on the processing

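With DESeq2 the number of the 8 genes called between the genotypes was 2 in medium and 2 with LPS, in place of 1 and 1. In medium it was 0 with no filter on genes, 0 in a fit of only the groups compared and 0 with voom and the pool as a random replicate block, and with LPS it was 0 with the earlier quasi-dispersion, 0 with no filter, 0 with a mean of at least 50 counts, 0 in a fit of only the groups compared and 0 with no batch term. Leaving out 1 library gave 0 to 1 genes in medium and 0 to 1 with LPS. With the replicate block the count stayed at 1 in medium (Ccr7) and 1 with LPS, where Ccr7 was called in place of Fscn1; the block changed no other call of the 8 genes, and of the CD40 signalling list it called 1 gene between the genotypes in medium, where the alternatives gave 0 to 3. Of the mature dendritic cell programme the alternatives called 0 to 4 genes in medium, 0 to 2 with LPS and 0 to 1 for the difference between responses, and of the TNF-type ligands 0 to 1 with LPS. The cause was not tested. With LPS against medium, 5 to 6 genes were called in each genotype under all 22 alternatives. Counts divided by 5 and a mean of at least 50 counts removed Cacnb3 before testing, as did a fit of only the groups compared for WT with LPS and for the genotypes in medium. A fit of only the groups compared is not possible for the difference between responses. Across genotypes no fold change of Ccr7 or Fscn1 changed sign under any alternative, with Ccr7 in medium ranging from 0.80 to 1.51 and Fscn1 with LPS from 0.65 to 1.83, where the lowest values come from a pseudocount of 2 CPM. Depth limits Cd40, Fscn1, Zbtb46 and Cacnb3 in medium, where they held 0 to 60 counts per library. Over DESeq2 and edgeR, genes called between the genotypes over the whole table numbered 500 and 46 in medium and 146 and 7 with LPS.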
